A study of Mus musculus with 4 samples.

Results

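MHC class II antigen presentation was followed through 7 genes in the nasal mucosa of mice: H2-Aa, H2-Ab1, H2-Eb1, Cd74, H2-DMa, H2-Oa and Ciita. They were taken by name from the value table, 7 of the 19938 genes that have a probe set of their own, and each was measured by 1 probe set. The 4 groups, all of the strain that the labels write as C56BL/6, were Duox2-/- mice given flagellin, Duox2-/- mice given PBS, wild-type mice given flagellin and wild-type mice given PBS, each with 1 array. Flagellin, the protein of bacterial flagella, was dropped into the nose at 5 ug/ml, 25 ul per nostril, and the mucosa of septum and turbinates was taken from 8-week-old mice after 4 h. Duox2 is an epithelial oxidase that makes hydrogen peroxide; the labels state neither the way its allele was made nor the number of mice behind an array. With 1 array per group no difference between single arrays has a replicate check or a p-value, and the number of arrays limits the precision of every value. Values are log2 intensities after RMA, and a difference of 1 is 2-fold.

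MHC class II molecules present peptides from engulfed or endosomal proteins to CD4+ T cells, and are made mainly by dendritic cells, macrophages and B cells, with epithelial cells able to make them after interferon gamma. An alpha and a beta chain assemble with the invariant chain Cd74, which fills the groove until it is cut away in endosomes, where H2-M exchanges its remnant for peptide and H2-O restrains H2-M. Ciita, a coactivator that binds no DNA itself, is the master regulator of these genes and acts through factors bound to the X and Y boxes of their promoters.

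The transcript of Duox2 did not bear out the genotype labels, with 5.50 after flagellin and 5.23 after PBS in the arrays labelled Duox2-/-, against 5.12 and 4.95 in the wild-type flagellin and PBS arrays, all under 6.52, the median of all values on the 4 arrays. The position of its probe set relative to the altered sequence is unknown here, and the genotypes are therefore called by their labels. The array medians lay between 6.48 and 6.56. The tissue label was borne out by Omp of olfactory neurons, between 11.85 and 12.16 on the 4 arrays, and by the epithelial gene Epcam, between 9.72 and 9.89. Skeletal muscle and tooth genes stood apart between the arrays: the mean log2 value of 7 muscle markers was 5.69 and 8.00 in the flagellin and PBS arrays labelled Duox2-/-, against 6.80 and 5.15 in the wild-type flagellin and PBS arrays. For 4 tooth markers it was 5.40 and 7.70, against 4.53 and 4.51, in the same order of arrays.

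H2-Aa, H2-Ab1, H2-Eb1 and Cd74 were clearly detected and differed between the arrays, while the endosomal editors and the regulator were dim. In bulk mucosa fewer cells of a type and less RNA per cell cannot be told apart. H2-Aa, the alpha chain of I-A, had 7.40 in the flagellin array and 8.35 in the PBS array labelled Duox2-/-, against 9.54 and 8.81 in the wild-type flagellin and PBS arrays. H2-Ab1, the beta chain that pairs with it, had 7.50 and 8.23 in the flagellin and PBS arrays labelled Duox2-/-, against 9.54 and 8.82 in the wild-type flagellin and PBS arrays. For both chains of I-A the wild-type flagellin array was the highest and the flagellin array labelled Duox2-/- the lowest. H2-Eb1, the beta chain of I-E, had 7.82 and 8.02 in the flagellin and PBS arrays labelled Duox2-/-, against 8.98 and 8.33 in the wild-type flagellin and PBS arrays. Cd74 had 6.87 and 7.37 in the flagellin and PBS arrays labelled Duox2-/-, against 8.70 and 8.05 in the wild-type flagellin and PBS arrays.

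All of these 4 genes shared the same order of arrays, and in each both arrays labelled Duox2-/- lay below both wild-type arrays. That separation is common here: it held for 39.2% of the 12471 genes bright enough to be ranked, which are those whose highest value reached 6.52. The full order, from the flagellin array labelled Duox2-/- at the bottom through the PBS array of the same label and the wild-type PBS array to the wild-type flagellin array at the top, held for 12.8%. The size of the differences, given below, is less common than their order.

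The other 3 genes stayed under 6.52 on every array, where a probe set carries less information on differences. H2-DMa, the alpha chain of H2-M, had 6.27 and 6.01 in the flagellin and PBS arrays labelled Duox2-/-, against 6.11 and 6.00 in the wild-type flagellin and PBS arrays. H2-Oa, the alpha chain of H2-O, had 5.56 and 5.46 in the flagellin and PBS arrays labelled Duox2-/-, against 5.52 and 5.28 in the wild-type flagellin and PBS arrays. Ciita had 5.67 and 5.72 in the flagellin and PBS arrays labelled Duox2-/-, against 5.72 and 5.60 in the wild-type flagellin and PBS arrays. None of these 3 genes showed the order of H2-Aa, H2-Ab1, H2-Eb1 and Cd74.

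**Figure D1:**
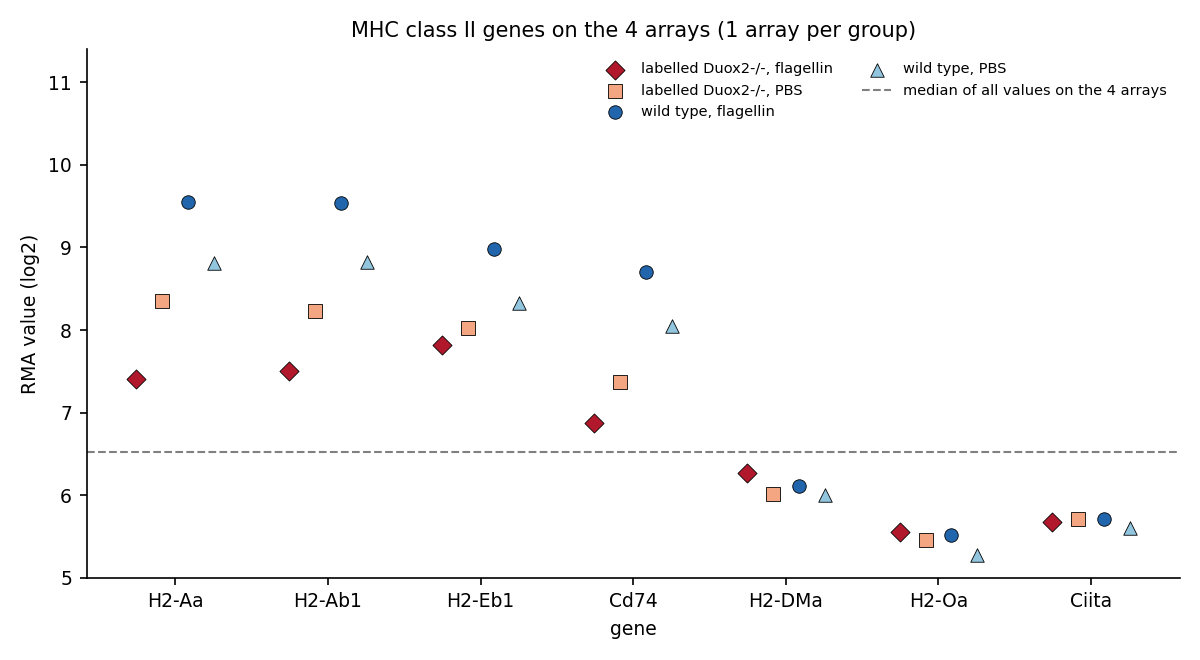
RMA values (log2, vertical axis) of the 7 class II genes on the 4 arrays, 1 point per array, with the median of all values dashed. H2-Aa, H2-Ab1, H2-Eb1 and Cd74 lie above the dashed line on all 4 arrays and are highest in the wild-type flagellin array, while H2-DMa, H2-Oa and Ciita lie below it.

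The promoters of 4 class II genes carry the X and Y boxes at a fixed spacing, and are shown because only H2-Aa and H2-Eb1 of them differed by 2-fold in any comparison while H2-Oa and H2-Eb2 were dim and nearly flat. The sequences are from RefSeq on GRCm38.p6 and run from 250 bases before the gene start to 50 after it, in the direction of the gene, and the capitals mark the core GCAAC of the X box followed by CTGATTGG, which holds the inverted CCAAT of the Y box.
H2-Aa, chr17:34287774-34288073, minus strand: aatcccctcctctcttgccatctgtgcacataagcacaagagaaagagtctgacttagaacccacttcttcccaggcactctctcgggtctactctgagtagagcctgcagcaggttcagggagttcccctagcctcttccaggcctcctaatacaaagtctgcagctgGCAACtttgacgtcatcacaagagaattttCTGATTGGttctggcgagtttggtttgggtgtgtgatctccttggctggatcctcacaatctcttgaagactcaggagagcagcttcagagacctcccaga
H2-Eb1, chr17:34305617-34305916, plus strand: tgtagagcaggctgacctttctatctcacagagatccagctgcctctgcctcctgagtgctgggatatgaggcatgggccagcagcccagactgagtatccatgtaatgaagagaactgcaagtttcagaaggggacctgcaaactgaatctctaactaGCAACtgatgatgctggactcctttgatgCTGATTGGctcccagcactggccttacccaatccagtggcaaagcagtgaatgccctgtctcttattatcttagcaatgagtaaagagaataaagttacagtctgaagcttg
H2-Eb2, chr17:34325425-34325724, plus strand: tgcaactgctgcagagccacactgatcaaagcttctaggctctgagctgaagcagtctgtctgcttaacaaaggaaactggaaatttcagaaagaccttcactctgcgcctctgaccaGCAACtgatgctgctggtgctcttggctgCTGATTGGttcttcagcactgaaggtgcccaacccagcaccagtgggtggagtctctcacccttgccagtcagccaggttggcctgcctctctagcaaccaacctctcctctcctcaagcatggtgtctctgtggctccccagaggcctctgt
H2-Oa, chr17:34092129-34092428, plus strand: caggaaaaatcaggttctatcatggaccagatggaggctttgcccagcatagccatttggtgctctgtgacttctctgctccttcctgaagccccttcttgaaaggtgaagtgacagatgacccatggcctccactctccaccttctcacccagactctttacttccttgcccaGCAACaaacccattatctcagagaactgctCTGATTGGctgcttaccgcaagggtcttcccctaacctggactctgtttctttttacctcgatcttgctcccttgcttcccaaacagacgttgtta
The gap between the 2 marked runs was 25 bases in H2-Aa and H2-Oa and 24 in H2-Eb1 and H2-Eb2. Of 32851 promoter windows of this length, CTGATTGG stood in 4.10% and GCAAC in 35.2%, on either strand. The pair at a gap of 24 or 25 bases stood in 5 windows, 0.0152%, of which 4 are those shown and the other is on the opposite strand of Stard7, a lipid transfer gene. Letters and gap were chosen after reading these promoters, and with a gap of 18 to 30 bases before the shorter ATTGG the share was 0.709%. The match describes the letters and not a bound site. The promoter table also held H2-DMa, in 2 windows, and H2-Ob, H2-DMb1 and H2-DMb2, in 1 window each, and none of these held CTGATTGG. It held no window for H2-Ab1, Cd74 or Ciita, so their promoters were not searched.

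After flagellin, H2-Aa, H2-Ab1, H2-Eb1 and Cd74 were lower in the array labelled Duox2-/- than in the wild-type array. The log2 difference was -2.14 for H2-Aa, a 4.41-fold lower value, and -2.04 for H2-Ab1, 4.11-fold lower. It was -1.83 for Cd74, 3.56-fold lower, and -1.16 for H2-Eb1, 2.23-fold lower. Of the 7 genes 4 were at least 2-fold lower, against 1.65% of ranked genes, and the median over the 7 was -1.16, against -0.12 over ranked genes. Among the differences of ranked genes, H2-Aa stood at percentile 0.136, H2-Ab1 at 0.176, Cd74 at 0.233 and H2-Eb1 at 1.04. H2-DMa (0.16), H2-Oa (0.04) and Ciita (-0.04) were within 0.2 of no difference. The value of H2-Eb1 was -0.99 after cyclic loess, just short of 2-fold.

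Under PBS the same genes leaned the same way by less. The log2 difference, array labelled Duox2-/- minus wild-type array, was -0.68 for Cd74, -0.59 for H2-Ab1, -0.46 for H2-Aa and -0.30 for H2-Eb1. None of the 7 genes reached 2-fold, against 1.41% of ranked genes that did in either direction, and at 1.5-fold Cd74 and H2-Ab1 passed, against 2.0% of ranked genes. H2-Oa (0.18), Ciita (0.11) and H2-DMa (0.01) were slightly above 0. The median over the 7 was -0.30, against -0.04 over ranked genes. The 2 genotype comparisons share no array, but each shares arrays with the flagellin comparisons that follow.

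The flagellin responses of H2-Aa, H2-Ab1, H2-Eb1 and Cd74 ran in opposite directions. In the arrays labelled Duox2-/- the flagellin array was lower than the PBS array by a log2 difference of -0.94 for H2-Aa, -0.73 for H2-Ab1, -0.50 for Cd74 and -0.20 for H2-Eb1. In wild type the flagellin array was higher than the PBS array by 0.74 for H2-Aa, 0.72 for H2-Ab1, 0.65 for H2-Eb1 and 0.65 for Cd74, or 1.57-fold to 1.67-fold. The wild-type responses thus lay within 0.1 of each other, while those of the other genotype spread from H2-Aa to H2-Eb1.

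No response of the 7 genes reached 2-fold in either genotype, against 0.682% of ranked genes in the arrays labelled Duox2-/- and 0.978% in wild type. At 1.5-fold, H2-Aa and H2-Ab1 were lower in the arrays labelled Duox2-/-, against 3.13% of ranked genes, and all of H2-Aa, H2-Ab1, H2-Eb1 and Cd74 were higher in wild type, against 2.36%. A gene at least 1.5-fold higher in wild type and lower by any size in the arrays labelled Duox2-/- was found for 0.898% of ranked genes, and opposite signs of this kind at any size for 30.0%. H2-DMa was higher by 0.26 in the arrays labelled Duox2-/- and by 0.10 in wild type, H2-Oa by 0.10 and 0.24, and Ciita differed by -0.04 and 0.11 in the same order of genotypes. The response of the arrays labelled Duox2-/- minus that of wild type was -1.68 for H2-Aa, -1.45 for H2-Ab1, -1.15 for Cd74 and -0.85 for H2-Eb1. That difference was at least 2-fold below 0 for H2-Aa, H2-Ab1 and Cd74, against 1.44% of ranked genes. It uses all 4 arrays and was not tested.

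**Figure D2:**
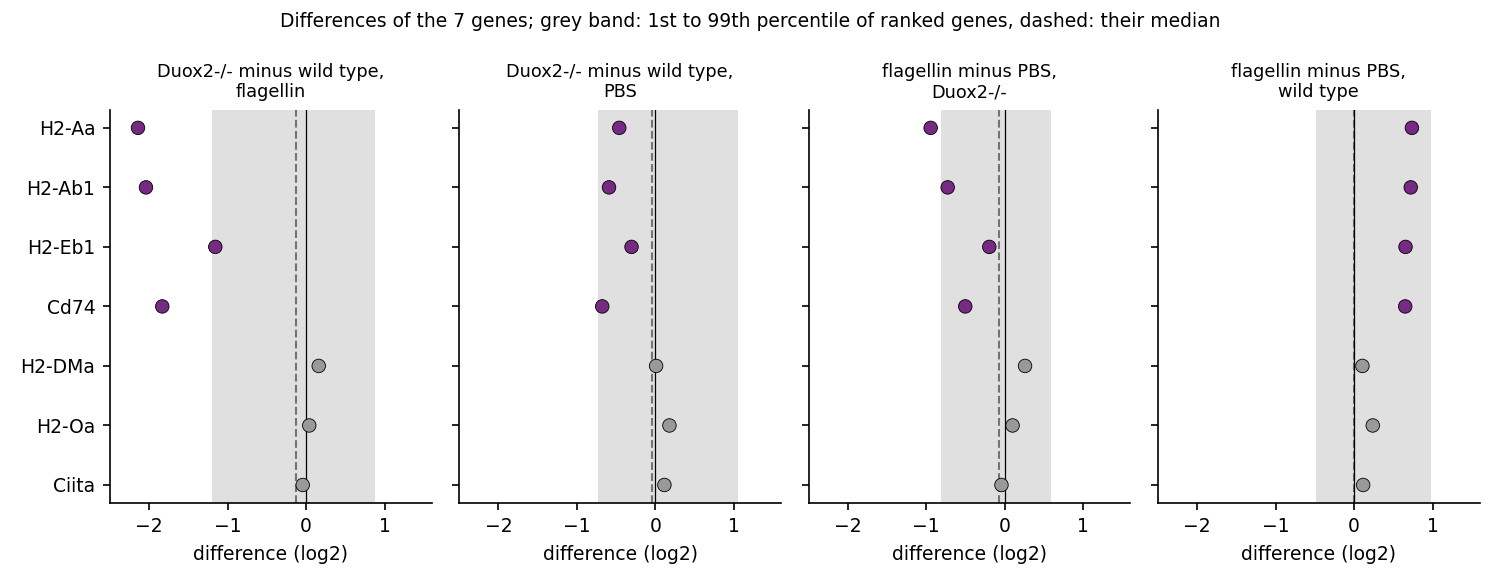
Log2 differences (horizontal axes) of the 7 genes (vertical axis) in the 4 comparisons of single arrays, with H2-Aa, H2-Ab1, H2-Eb1 and Cd74 in purple. The band spans the 1st to 99th percentile of ranked genes, and after flagellin H2-Aa, H2-Ab1 and Cd74 lie to its left at -2.14, -2.04 and -1.83.

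**Figure D3:**
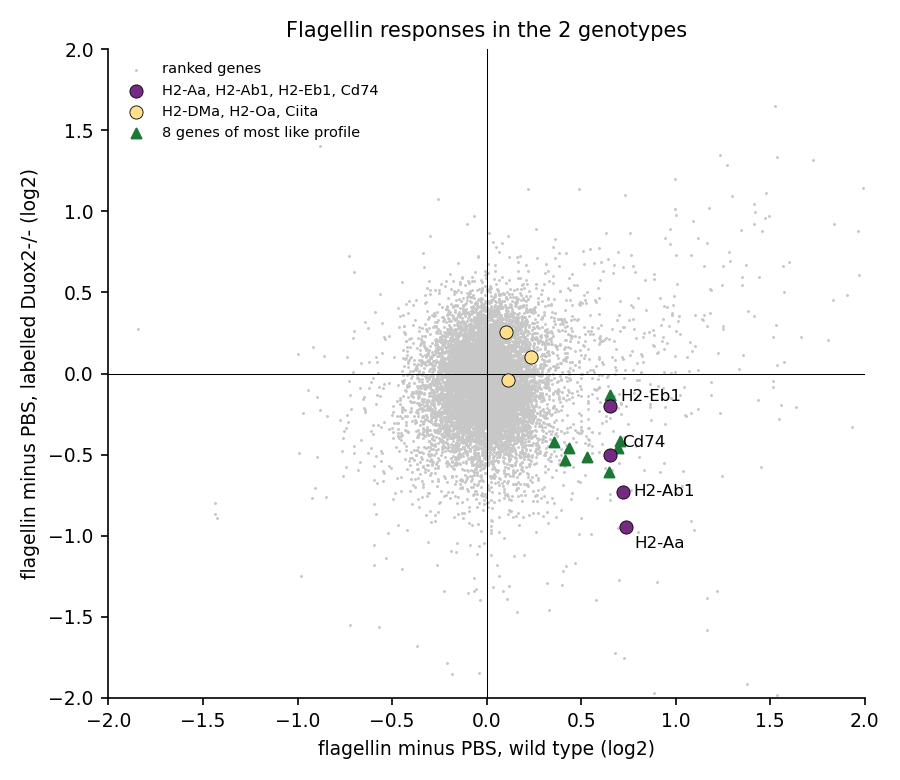
Flagellin response in the arrays labelled Duox2-/- (vertical axis, log2) against that in wild type (horizontal axis, log2), 1 point per ranked gene; 24 ranked genes lie outside the axes. The purple points fall in the lower right part, higher in wild type and lower in the arrays labelled Duox2-/-, and the yellow points of H2-DMa, H2-Oa and Ciita lie near the centre.

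A model with a genotype shift common to both treatments and a flagellin shift common to both genotypes was fitted with limma over the ranked genes. It has 1 residual degree of freedom, the interaction, which leaves the difference of responses untested, and genes with opposite responses get a wide error. No group has a repeat array, so the intervals and p-values of this fit do not measure the spread between mice or arrays of a group. By this fit Cd74 fell by 1.25 in the arrays labelled Duox2-/- (95% interval -1.79 to -0.72, limma adjusted p = 0.0323). H2-Ab1 fell by 1.32 (interval -1.95 to -0.68, limma adjusted p = 0.0409). H2-Aa, with a shift of -1.30 and an interval of -2.02 to -0.58, missed the threshold of 0.05 (limma adjusted p = 0.0549), as did H2-Eb1 at -0.73 with an interval of -1.17 to -0.29 (limma adjusted p = 0.0693). Of ranked genes 4.37% passed for genotype, 1.98% as lower. The calls of Cd74 and H2-Ab1 were lost in limma after centring each array on its median (adjusted p = 0.0607 and 0.0671), after quantile normalisation (0.0507 and 0.0644) and after cyclic loess (0.126 and 0.148). The shifts under these settings were -1.33, -1.20 and -1.16 for Cd74 and -1.39, -1.23 and -1.20 for H2-Ab1. Without the filter on dim genes all of H2-Aa, H2-Ab1, H2-Eb1 and Cd74 passed (limma adjusted p from 0.0188 to 0.0443). In that fit 1879 of 19938 genes passed for genotype.

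No class II gene passed for a shared flagellin shift in limma, where 0.281% of ranked genes did. The shift was -0.10 for H2-Aa, -0.003 for H2-Ab1, 0.23 for H2-Eb1 and 0.07 for Cd74, with limma adjusted p from 0.956 to 1.0 and unadjusted p from 0.271 to 0.991. The intervals of H2-Aa, -0.83 to 0.62, and H2-Ab1, -0.64 to 0.64, hold shifts of over 1.5-fold in either direction. In the fit over all 19938 genes H2-DMa, H2-Oa and Ciita had limma adjusted p of 0.721, 0.637 and 0.888 for genotype.

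The other class II chains did not show the pattern of H2-Aa, H2-Ab1 and H2-Eb1. A probe set that matches both H2-DMb1 and H2-DMb2, the beta chains of H2-M, and so cannot be given to either, had 7.52 and 7.36 in the flagellin and PBS arrays labelled Duox2-/-, against 7.72 and 7.55 in the wild-type flagellin and PBS arrays. Its log2 difference between genotypes was -0.20 after flagellin and -0.18 under PBS. H2-Ob, the beta chain of H2-O, lay between 6.00 and 6.09 on the 4 arrays, and H2-Eb2, a further beta chain gene, between 5.26 and 5.53. H2-Ea, the alpha chain of I-E, lay between 3.95 and 4.27. C57BL/6 mice are known to carry a deletion in the H2-Ea promoter and to show no I-E on their cells, and RefSeq lists the gene as a pseudogene in that strain.

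H2-Ab1, H2-Aa and H2-Eb1 are direct neighbours on chromosome 17. Between H2-Oa and H2-Ea RefSeq places 15 genes, 13 of them measured by a probe set of their own, and 8 of those lie outside the 7 described. These 8 differed between genotypes by -0.58 to 0.14 after flagellin and by -0.38 to 0.31 under PBS, and none reached 2-fold in either comparison. Among them, Tap1 and Psmb8, which load and cut peptides for class I, were at -0.58 and -0.58 after flagellin, Tap2 at -0.25, Psmb9 at -0.21 and the chromatin reader Brd2 at -0.10.

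**Figure D4:**
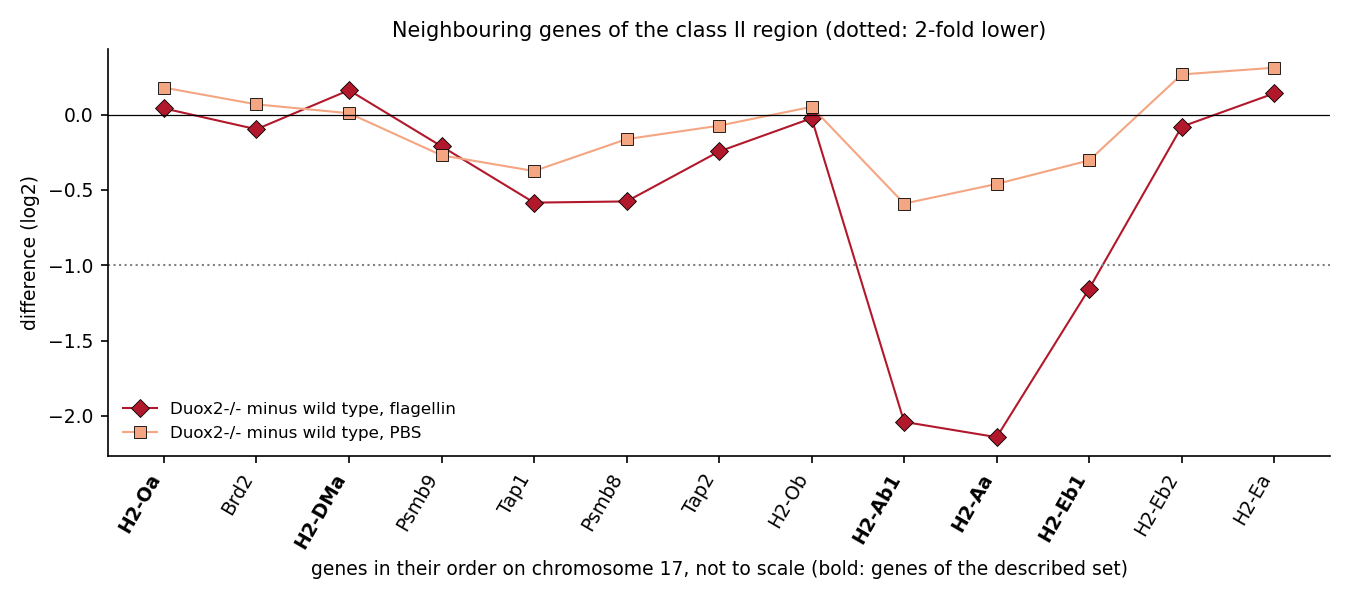
Log2 difference, array labelled Duox2-/- minus wild-type array (vertical axis), after flagellin and under PBS, for 13 measured genes in their order on chromosome 17 (horizontal axis, not to scale). The flagellin line drops below the dotted 2-fold mark at H2-Ab1, H2-Aa and H2-Eb1, and lies between -0.58 and 0.16 at the other 10 genes.

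Of the genes of endosomal processing, 1 stood out by size, the protease that cuts the invariant chain. After flagellin 8 of 11 genes were lower in the array labelled Duox2-/- than in the wild-type array, a share close to the 66.8% of ranked genes that were lower there at any size. Their median was -0.34, against -0.12 over ranked genes, and 1 was at least 2-fold lower, against 1.65% of ranked genes. This was Ctss, cathepsin S, with 8.25 and 8.51 in the flagellin and PBS arrays labelled Duox2-/-, against 9.36 and 8.73 in the wild-type flagellin and PBS arrays, a log2 difference of -1.11 after flagellin. Ctss was also lower by -0.26 after flagellin in the arrays labelled Duox2-/- and higher by 0.63 in wild type. Ifi30, which reduces disulfide bonds in endosomes, was at -0.87 between genotypes after flagellin, and Ctsd, an aspartic protease, at -0.58. Marchf1, a ligase that removes class II from the surface, was dim and at 0.18.

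No factor upstream of the class II promoters reached 2-fold. After flagellin 13 of 18 genes had lower values in the array labelled Duox2-/-, again a share close to the 66.8% of ranked genes, with a median of -0.34. Irf1, an interferon gamma target that acts on Ciita, was at -0.98, with 6.37 and 6.44 in the flagellin and PBS arrays labelled Duox2-/-, against 7.34 and 7.10 in the wild-type flagellin and PBS arrays. Ifngr2 and Ifngr1, the receptor chains, were at -0.68 and -0.59, and the cytokine gene Ifng was dim with 5.67 and 5.48 in the flagellin and PBS arrays labelled Duox2-/-, against 5.13 and 4.81 in the wild-type flagellin and PBS arrays. Of the X box factors, Creb1 was at -0.63, Rfx5 at -0.33, Rfxank at 0.08 and Rfxap at 0.07, and of the Y box factors Nfya was at -0.58, Nfyb at -0.55 and Nfyc at -0.07.

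Costimulatory genes were mostly dim and did not share the pattern. Of 8 genes 3 were ranked and 5 had lower values after flagellin in the array labelled Duox2-/-, below the share of ranked genes (66.8%). Their median of -0.12 was that of ranked genes. Lag3, an inhibitory class II receptor of T cells, was at 0.75, Cd40 at 0.66 and Cd86, a ligand of Cd28, at -0.53.

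Interferon gamma induced genes, in contrast, differed between genotypes about as much as class II, and already under PBS. After flagellin 7 of 9 were at least 2-fold lower in the array labelled Duox2-/-, against 1.65% of ranked genes. Their median was -1.29, against -0.12 over ranked genes, led by the GTPase genes Iigp1 at -2.15 and Gbp4 at -1.78. Under PBS the median was -0.76, against -0.04 over ranked genes, with Gbp4 at -1.19 and Iigp1 at -1.03, while H2-Aa was at -0.46. The flagellin response of these induced genes had a median of -0.03 in the arrays labelled Duox2-/- and of 0.56 in wild type. Over ranked genes the medians were -0.07 and -0.002 in the same order. Of 10 class I presentation genes 9 were lower after flagellin in the array labelled Duox2-/-, against 66.8% of ranked genes, with a median of -0.45. B2m, the light chain of class I, had 10.32 and 10.83 in the flagellin and PBS arrays labelled Duox2-/-, against 11.68 and 10.87 in the wild-type flagellin and PBS arrays, a log2 difference of -1.36 after flagellin. Nlrc5, the coactivator of class I genes, ran the other way at 0.74.

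Markers of the cells that carry class II moved with these genes in part. The mean log2 value of 6 leukocyte markers was 7.18 and 7.19 in the flagellin and PBS arrays labelled Duox2-/-, against 7.83 and 7.21 in the wild-type flagellin and PBS arrays. After flagellin all 6 had lower values in the array labelled Duox2-/-, where 66.8% of ranked genes did, with a median of -0.75. Under PBS 2 of 6 were above 0, against 42.3% of ranked genes, with a median of -0.07. The general leukocyte gene Ptprc was at -0.98 after flagellin and at -0.13 under PBS. The mean log2 value of 13 monocyte and macrophage markers was 6.95 and 7.04 in the flagellin and PBS arrays labelled Duox2-/-, against 7.65 and 7.30 in the wild-type flagellin and PBS arrays. After flagellin all 13 had lower values in the array labelled Duox2-/-, beside 66.8% of ranked genes, with a median of -0.61. Of the 13, 3 were at least 2-fold lower, against 1.65% of ranked genes. Ccr2, the chemokine receptor of monocytes, had 5.35 and 5.98 in the flagellin and PBS arrays labelled Duox2-/-, against 7.35 and 6.11 in the wild-type flagellin and PBS arrays. Adgre1, a surface receptor of macrophages, was at -1.44 and Mrc1, a mannose receptor, at -1.03.

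The surface chains and Cd74 were further from 0 than the median marker of either list. Measured against the median leukocyte marker, an alternative chosen after seeing the data, the difference between genotypes after flagellin was -1.39 for H2-Aa, -1.29 for H2-Ab1, -1.08 for Cd74 and -0.40 for H2-Eb1. Against the median monocyte and macrophage marker it was -1.54, -1.43, -1.23 and -0.55 for the same genes. On these scales the dim genes lay above 0, with H2-DMa at 0.91, H2-Oa at 0.79 and Ciita at 0.71 against the leukocyte marker, and at 0.77, 0.65 and 0.56 against the monocyte and macrophage marker. Against the leukocyte marker, the flagellin response in the arrays labelled Duox2-/- was -0.93 for H2-Aa, -0.71 for H2-Ab1, -0.49 for Cd74 and -0.18 for H2-Eb1, and in wild type it lay between 0.08 and 0.17 for these 4 genes.

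B cell and dendritic cell markers gave no comparable shift, at low levels. None of 10 B cell markers was ranked. Their mean log2 value was 5.10 and 5.14 in the flagellin and PBS arrays labelled Duox2-/-, against 4.95 and 4.75 in the wild-type flagellin and PBS arrays, and Cd79a and Ms4a1, which define the lineage, lay between 3.75 and 4.44 on all arrays. Of 10 conventional dendritic cell markers 2 were ranked, with a median of 0.21 between genotypes after flagellin and Cd209a at -0.81. Between genotypes after flagellin, skeletal muscle markers had a median of -1.50, neutrophil markers of -0.52, endothelial markers of -0.55 and epithelial markers of -0.45. Muscle markers also had medians of -2.63 for flagellin in the arrays labelled Duox2-/- and 1.97 in wild type, but of 3.18 between genotypes under PBS, opposite in sign to H2-Aa. The part of any of these cell types in the class II values was not tested.

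**Figure D5:**
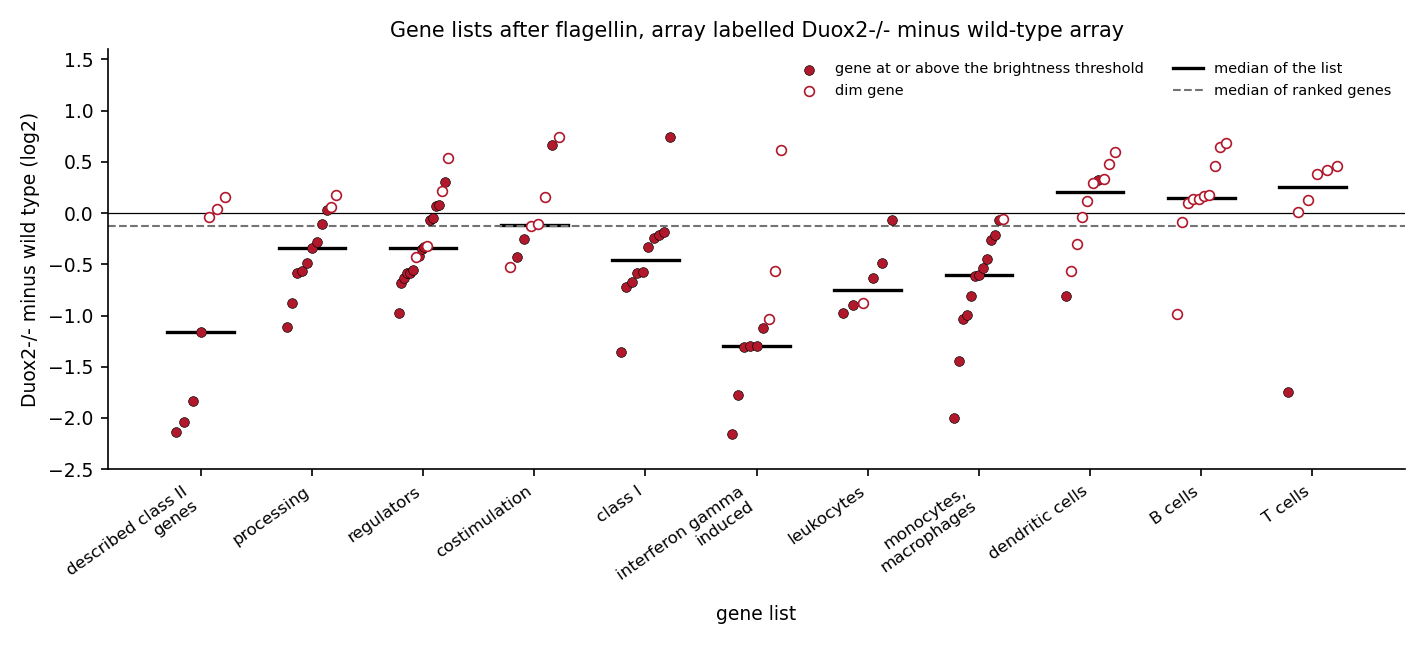
Log2 difference after flagellin, array labelled Duox2-/- minus wild-type array (vertical axis), 1 point per gene in the class II set and 10 other lists (horizontal axis), with dim genes open and list medians as bars. The lowest points are H2-Aa at -2.14 among class II genes and Iigp1 at -2.15 among interferon gamma induced genes, and B cell and T cell medians lie above 0. Of 6 T cell genes 5 lie above 0, and the only ranked one, Cd3g, is at -1.75.

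The genes whose 4 values ran most like the mean profile of H2-Aa, H2-Ab1, H2-Eb1 and Cd74 were found by the root mean square distance between values centred on their own mean, over 4 arrays. The nearest was Itgam, an integrin chain of myeloid cells, at a distance of 0.0473, against a median of 0.620 over ranked genes. Itgam had 6.35 and 6.81 in the flagellin and PBS arrays labelled Duox2-/-, against 8.06 and 7.36 in the wild-type flagellin and PBS arrays. C3ar1, the receptor of complement fragment C3a, followed at 0.0847, Apobec1, an RNA-editing enzyme, at 0.113 and Pigr, the epithelial carrier of IgA, at 0.123. Phf11c (0.133), Piga (0.149), Alox12e (0.158) and the membrane mucin gene Muc4 (0.167) completed the 8 nearest. Of the described genes themselves Cd74 was nearest to the mean profile at 0.0627, and Ciita, H2-Oa and H2-DMa were at 0.657, 0.695 and 0.718. A profile over 4 arrays has few degrees of freedom, so such likeness is a description only.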

How the data were processed

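The 4 Affymetrix arrays of biotin-labelled total RNA share 1 deposited value table. The authors deposited log2 values, as their range from 1.43 to 13.7 shows, made per the submitters' processing notes with RMA in Affymetrix Expression Console 1.1; for the probe sets, a genome build was not given in the sources used here. RMA compresses low values, so differences of dim genes can be understated. The spread of the deposited values still differed between arrays. The interquartile range was 2.43 and 2.54 in the flagellin and PBS arrays labelled Duox2-/-, against 2.73 and 2.79 in the wild-type flagellin and PBS arrays. Differences of dim genes between genotypes can therefore also change sign with the normalisation, as for Ciita under PBS, from 0.11 as deposited to -0.07 after quantile normalisation.

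Of 35556 probe sets, 21789 were paired with 1 gene through the platform annotation, with symbols updated by Entrez ID from RefSeq. For genes with several, the probe set of highest 4-array mean was used. Ranked genes reached 6.52, the median of all values, on at least 1 array. Differences are of single arrays, counted at 2-fold. The additive model used limma 3.58.1 in R 4.3.3 (lmFit, eBayes, Benjamini-Hochberg at 0.05, prior degrees of freedom 7.48). Other steps used Python 3.11.15 with numpy 2.4.6 and pandas 2.3.3. Of 175 listed gene names 161 genes were matched, 2 names being the same gene. H2-DMb1 and H2-DMb2 share a probe set, described apart from the lists, and the remaining names were not analysed here. The members, lists, tests and alternatives were chosen with earlier results of these data known. The rule for named genes took the 7 genes, list members past 2-fold and up to 3 others of largest size, and the 8 genes of nearest profile; some further list members were named after their values were seen.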

Additional observations from a re-analysis of the deposited data

Results flagged for a closer look

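With 1 array per group, opposite signs of the flagellin response in the arrays labelled Duox2-/- and in wild type mark a gene for a closer look, and the difference was not tested for any of them. Among class II genes the response of the arrays labelled Duox2-/- minus that of wild type was -1.68 for H2-Aa, -1.45 for H2-Ab1, -1.15 for Cd74, -0.85 for H2-Eb1 and, with both responses close to 0, -0.16 for Ciita. Genes of the 6 pathway lists and of the leukocyte, B cell, dendritic cell and monocyte and macrophage lists were searched in the same way. Those with opposite signs and a difference of at least 2-fold were Ccr2 at -1.87, B2m at -1.32, Adgre1 at -1.26 and Iigp1 at -1.13. Cox6a2, from the plasmacytoid dendritic cell list, also qualified at -1.01. The other matched genes of that list, Siglech, Ccr9 and Klk1b27, were dim and at 0.21, 0.31 and 0.51. Cox6a2 was highest, at 7.54, in the PBS array labelled Duox2-/-, where the mean of the muscle markers was also highest, at 8.00.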

How the results depend on the processing

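The direction of each comparison of single arrays was the same for H2-Aa, H2-Ab1, H2-Eb1 and Cd74 under all planned settings. After flagellin, the difference between genotypes ranged from -2.20 to -1.96 for H2-Aa and from -1.21 to -0.99 for H2-Eb1, and the count at least 2-fold lower was 3 after cyclic loess, against 4 as deposited. H2-DMa and H2-Oa changed sign between genotypes with the setting under both treatments, and Ciita under PBS. The median of ranked genes after flagellin was -0.12 as deposited, -0.18 after centring on array medians and -0.03 after cyclic loess. At 1.5-fold in place of 2-fold, the counts after flagellin were 2 lower in the arrays labelled Duox2-/- and 4 higher in wild type, and 2 were lower between genotypes under PBS.

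In the additive limma fit, class II genes passing for genotype were 2 as deposited, 0 after centring on array medians, 0 after quantile normalisation, 0 after cyclic loess, 4 with no filter on dim genes and 4 with a prior that follows intensity. Over all genes fitted, those passing for genotype were 545 of 12471 as deposited, 161 after centring, 271 after quantile normalisation and 1 after cyclic loess. They were 1879 of 19938 with no filter on dim genes and 921 of 12471 with the prior that follows intensity. For flagellin 35 passed as deposited and 0 by limma after loess, where 687 had an unadjusted p under 0.05. The flagellin shift of H2-Ab1, near 0, turned to 0.028 after quantile normalisation and 0.063 after cyclic loess.

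The alternatives against cell markers were chosen after seeing the data. Against the median leukocyte marker, the median of the 7 genes was 0.082 for flagellin in wild type, -0.40 between genotypes after flagellin and -0.19 for the difference of responses. At least 2-fold lower were 3 genes between genotypes after flagellin and 1 for the difference of responses, against 4 and 3 as deposited. As deposited, 1.65% and 1.44% of ranked genes were so. Their shares on this scale were not computed. Against the median monocyte and macrophage marker the medians were 0.45, -0.55 and -0.36, again with 3 genes between genotypes after flagellin and 1 for the difference of responses. The cause of these changes was not tested. No paired analysis was possible because each group has 1 array and the replicate numbers only name it. For the same reason no array could be left out.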
